A study of Mus musculus with 4 samples.

Results

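TLE3 was listed at 16130 genomic regions in adipocytes derived from epididymal white fat (eWAT) and in neither of the other depots studied, brown fat (BAT) and inguinal white fat (iWAT). These were 23.2% of the 69599 regions of the 3 deposited lists together and 31.6% of the 51015 regions of the eWAT list. Members were the region identifiers present in the eWAT list and absent from the iWAT and BAT lists, so the measured TLE3 values of all libraries chose them. The 5257 members whose iWAT and BAT values were both below 7.5 scaled reads are described separately and called the strict set. They made up 32.6% of the members.

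TLE3 is a transcriptional corepressor of the Groucho/TLE family. It does not bind DNA itself but is brought to enhancers and promoters by DNA-binding factors such as TCF/LEF, Hes and Runx proteins, and it recruits histone deacetylases. In adipocytes it is known as a partner of PPARγ that favours lipid storage genes, and as an antagonist of the thermogenic programme driven by Prdm16. Binding was measured by chromatin immunoprecipitation followed by sequencing (ChIP-seq).

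The eWAT, iWAT and BAT groups each had 1 library made with an anti-TLE3 antibody, and the only input library came from iWAT adipocytes. All 4 came from male NMRI mice aged 4 to 5 weeks, an outbred strain, with fat pooled from 10 to 15 mice, and BAT joined the interscapular, cervical and axillary pads. Cells of the stromal vascular fraction, the non-adipocyte cells freed by collagenase, were differentiated in all groups with insulin (30 nM) and rosiglitazone (1 µM), which activates PPARγ, and collected on day 8. Cultures over 50% differentiated were kept, and the cells present besides adipocytes were not measured here. Crosslinking took 15 min in 2 mM disuccinimidyl glutarate, a protein crosslinker, and 30 min in 1% formaldehyde. There were no replicates, so a depot and its library cannot be told apart, and the values below are descriptions of these libraries with no test of the depots. No RNA was analysed here, so the labelled cell type could be checked only through the genes that carried TLE3.

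Of the 107 strict members within 1 kb of a transcription start site, 48 were centred in the window running 250 bases upstream to 50 bases downstream of a start site. Promoter sequence of the same span, from RefSeq on GRCm38.p6, was at hand for 43 of the 48 genes, and 34 had a single promoter entry. The member coordinates are on mm9, and the 2 were joined by gene and by the deposited distance to the start site. The 6 promoters printed here show C1qb (chr4:136886151-136886450, minus strand), Lyz2 (chr10:117282223-117282522, minus), Slc11a1 (chr1:74374953-74375252, plus), Hk3 (chr13:55021336-55021635, minus) and Inpp5d (chr1:87620062-87620361, plus), genes of macrophages and other blood cells, and the visceral mesenchyme factor Tcf21 (chr10:22820094-22820393, minus). Capitals mark the letters GAGGAA on either strand, the core recognised by PU.1, an Ets factor that directs macrophage genes. C1qb and Lyz2 stand in the macrophage list and Tcf21 in the visceral list described below, and the other 3 were picked after their values were seen.
C1qb: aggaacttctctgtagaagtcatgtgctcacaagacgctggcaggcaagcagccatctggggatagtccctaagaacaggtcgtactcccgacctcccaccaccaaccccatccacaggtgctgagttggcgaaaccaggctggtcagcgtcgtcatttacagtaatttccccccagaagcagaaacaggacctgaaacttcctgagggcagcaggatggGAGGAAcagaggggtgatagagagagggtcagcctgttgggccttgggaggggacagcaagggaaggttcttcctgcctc
Lyz2: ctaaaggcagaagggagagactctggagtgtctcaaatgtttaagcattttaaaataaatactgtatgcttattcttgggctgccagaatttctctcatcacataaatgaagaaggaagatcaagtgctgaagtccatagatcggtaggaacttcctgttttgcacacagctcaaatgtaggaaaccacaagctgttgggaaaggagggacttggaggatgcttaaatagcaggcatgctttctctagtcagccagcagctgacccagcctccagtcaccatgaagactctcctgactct
Slc11a1: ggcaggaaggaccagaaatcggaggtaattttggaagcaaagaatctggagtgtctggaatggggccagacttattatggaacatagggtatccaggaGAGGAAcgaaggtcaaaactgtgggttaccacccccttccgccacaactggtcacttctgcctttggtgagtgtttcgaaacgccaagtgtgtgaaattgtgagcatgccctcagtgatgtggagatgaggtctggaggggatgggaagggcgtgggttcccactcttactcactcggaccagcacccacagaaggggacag
Hk3: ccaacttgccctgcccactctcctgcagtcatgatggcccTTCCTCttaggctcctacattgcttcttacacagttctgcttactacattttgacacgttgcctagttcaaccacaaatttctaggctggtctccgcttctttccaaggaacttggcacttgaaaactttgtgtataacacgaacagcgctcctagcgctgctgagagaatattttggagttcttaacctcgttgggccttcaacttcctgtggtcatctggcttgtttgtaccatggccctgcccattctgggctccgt
Inpp5d: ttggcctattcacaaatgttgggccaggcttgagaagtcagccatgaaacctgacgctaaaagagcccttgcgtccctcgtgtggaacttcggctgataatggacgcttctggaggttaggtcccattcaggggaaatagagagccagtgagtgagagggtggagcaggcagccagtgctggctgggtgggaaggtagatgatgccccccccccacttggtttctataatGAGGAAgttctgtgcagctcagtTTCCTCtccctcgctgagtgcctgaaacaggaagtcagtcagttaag
Tcf21: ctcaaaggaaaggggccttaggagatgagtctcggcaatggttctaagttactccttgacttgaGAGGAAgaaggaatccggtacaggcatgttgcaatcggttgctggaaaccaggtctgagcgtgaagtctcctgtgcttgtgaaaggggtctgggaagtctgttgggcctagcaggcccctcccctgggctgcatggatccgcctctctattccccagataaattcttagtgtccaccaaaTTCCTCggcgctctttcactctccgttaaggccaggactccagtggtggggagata

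The 34 single promoters of the strict set were searched on both strands for 15 short motifs. GAGGAA, added after the values were seen, was found in 22 of 34, or 64.7% (95% Wilson interval 47.9 to 78.5). It was found in 47.9% of the 121 single promoters of all members (39.2 to 56.8), in 3 of 6 of iWAT-alone regions with eWAT and BAT below 7.5 (18.8 to 81.2%), too few for a comparison, in 30.8% of 39 promoters holding any iWAT-alone region (18.6 to 46.4), in 28.6% of 42 with a region of all 3 depots (17.2 to 43.6) and in 28.4% of all 22862 single promoters. The longer form GAGGAAGT, which contains it, was also added after the values were seen. This form occurred in 14.7% of the strict set's promoters (6.45 to 30.1), against 3.32% of all. The Runx core TGTGGT occurred in 12 of 34, or 35.3% (21.5 to 52.1), against 17.1% of all. The KLF/SP letters GGGCGG occurred in 11.8% (4.67 to 26.6), against 35.2% of all, beside a median of 5 CpG dinucleotides in the strict set's promoters and 7 in all promoters. The intervals of the nuclear receptor site AGGTCA, the C/EBP site TTGCNNAA, the EBF site CCCNNGGG, the AP-1 site TGANTCA, the TCF/LEF site CTTTGA, the TEAD site GGAATG, the E-box CACGTG, the Ets site CCGGAAG, which shares only GGAA with the PU.1 core, and the CRE site TGACGTCA all included the share of all promoters. The NFI site TTGGCN, in 64.7% (47.9 to 78.5) against 47.0% of all, and the GATA site AGATAA, in 23.5% (lower bound 12.4) against 11.5%, lay just above it. In promoters with any iWAT-alone region these sites stood at 64.1% and 20.5%, and with a region of all 3 depots at 73.8% and 16.7%. The NFI interval included the 48.2% of protein-coding promoters. Lyz2 carried no GAGGAA in this window, and Inpp5d and Tcf21 carried 2 each. A match is a run of letters and not a measured site.

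Within each library all values were whole multiples of 1 step within 0.1 of it, taken here as 1 read. The step was read over the 3 lists joined, since a library's own list holds none of its values below 15, and the Poisson intervals rest on it. A read counted for 0.883 scaled reads in the eWAT library, 0.526 in the iWAT library, 2.77 in the BAT library and 0.650 in the input, so BAT was the shallowest library. In the depot that lists it, no region had fewer than 15 scaled reads or less than 10 times the input, and these limits were read from the values. That minimum was 17 reads in the eWAT library, 29 in the iWAT library and 6 in the BAT library. With 3 reads taken as the one-sided limit for a count of 0, a BAT value of 0 allows up to 8.30 scaled reads, above the strict limit of 7.5, so the strict set rests on the iWAT value more than on the BAT value. Poisson and Wilson intervals at 95% cover counting error only.

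The members were modest regions of the eWAT library. Their eWAT values had a median of 23.8 scaled reads (quartiles 18.5 and 36.2, highest 254), against medians of 9.98 (iWAT), 2.77 (BAT) and 1.30 (input). Strict members had medians of 20.3 (eWAT), 4.73 (iWAT), 0 (BAT) and 0.65 (input) scaled reads, with an eWAT maximum of 170. By comparison, regions of all 3 depots had a median eWAT value of 60.9, and regions shared by eWAT and iWAT 37.1. In 36.3% of members, and in 17.5% of strict members, the eWAT value reached 30. No member had an iWAT or BAT value above its eWAT value, which the limits of the lists fixed in advance. Such a region would have met the limits of the other list too. BAT had no read in 6026 members (37.4%) and in 3166 strict members (60.2%).

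Absence from the other lists had 2 forms. In 12815 members both other libraries were below 15 scaled reads, with medians of 21.2 (eWAT), 8.41 (iWAT) and 2.77 (BAT). In the remaining 3315 (20.6%) another library reached 15 but not 10 times the input, with medians of 47.7 (eWAT), 24.7 (iWAT) and 11.1 (BAT), and their median input value was 3.25, against 0.65 in the 12815. The iWAT library was at 15 or more in 3246 of them and the BAT library in 1056. At least 2-fold higher eWAT values than in both iWAT and BAT, with 1 scaled read added to each, were found in 9950 members (61.7%), where the same call held for 17% of all 69599 regions. The rule used these values, so nothing is read from that difference.

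**Figure D1:**
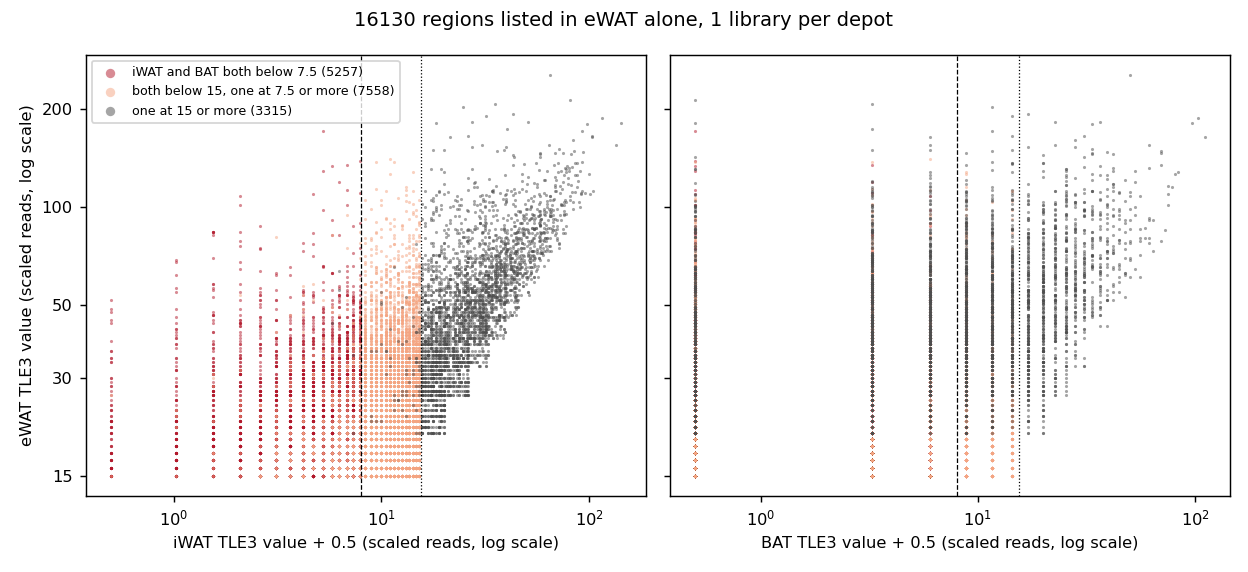
TLE3 values of the 16130 eWAT-alone members, eWAT (vertical, scaled reads) against iWAT (left) and BAT (right), with 0.5 added to the horizontal values, and log scales. Each point is 1 region, the dashed line marks 7.5 and the dotted line 15 scaled reads, and the 3315 grey regions are those at 15 or more in another library.

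At the edge of the eWAT list, 1135 members had the lowest value, 15.01 scaled reads. Among them were regions near Slco6d1, with 15.01 (eWAT), 3.15 (iWAT) and 2.77 (BAT), near Cdh20, with 15.01 (eWAT), 11.56 (iWAT) and 0 (BAT), and near Tnfrsf11a, with 15.01 (eWAT), 3.15 (iWAT) and 0 (BAT). Just outside stood regions at 14.13 in eWAT near Mir3473f and A830018L16Rik, listed in iWAT alone at 32.06 and 17.34, and near Marco, listed in iWAT at 16.29 and in BAT at 19.36. At the strict limit, 449 members had an iWAT value of 7.36, such as those near Cntnap5b (16.78 in eWAT), Phlpp1 (26.49) and Rab3gap1 (27.37). Another 492 stood just outside at 7.88, such as those near Zcchc2 (20.31 in eWAT) and Ccdc93 (17.66 and 18.54 in eWAT). One more read in iWAT separates these groups.

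The strongest members were mostly regions with some TLE3 in the other depots. The highest lay in an intron at chr19:28520053-28520283 (mm9, as all member coordinates), 233 kb from the start site of its nearest gene D930032P07Rik. It had 254.32 (eWAT), 64.64 (iWAT), 49.77 (BAT) and 6.51 (input) scaled reads. The next lay in an intron near Gtf2h3, a subunit of the transcription factor TFIIH, with 212.82 (eWAT), 80.4 (iWAT), 0 (BAT) and 9.11 (input). Both were above 15 scaled reads in iWAT and missed that list through the input. Regions with the nearest genes Fam43a (eWAT 206.64, iWAT 34.68, BAT 2.77), Mpzl1 (eWAT 203.1, iWAT 24.17, BAT 11.06), Fam150b, a ligand of the receptor kinase Alk (eWAT 193.39, iWAT 42.57, BAT 16.59), and Cdc5l, a splicing factor (eWAT 189.86, iWAT 31.53, BAT 13.83), followed and were of the same kind. They lay 230, 69.9, 104 and 121 kb from the start sites of these genes.

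The strongest strict members had eWAT values between 102 and 170 scaled reads beside at most 7.36 in iWAT and 5.53 in BAT. The highest lay in an intron at chr4:62176588-62176818, 4240 bp downstream of the start site of Alad, a heme synthesis enzyme, with 170.43 in eWAT (Poisson interval 147 to 196), 4.73 in iWAT (2.16 to 8.98), 0 in BAT and 5.21 in the input. Its iWAT value did not exceed the input. A region 56.0 kb from the start site of Spata6 had 138.64 in eWAT (118 to 162), 7.36 (iWAT), 0 (BAT) and 0.65 (input). The rule fixed the gap between the depots in all 12 of the highest.

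Among the other 10 were regions with the nearest genes Gm12718 (eWAT 134.22, iWAT 6.31), Rgs17, a regulator of G protein signalling (eWAT 133.34, iWAT 5.26), Spsb4, a ubiquitin ligase adaptor (eWAT 128.93, iWAT 4.73), and Plcb4, a phospholipase C (eWAT 119.21, iWAT 5.78). They lay 399, 15.3, 21.5 and 55.0 kb from the start sites of these genes. Osmr, the oncostatin M receptor, lay 97.1 kb from a region with 113.03 in eWAT and 6.31 in iWAT. Regions with the nearest genes Syt9, a synaptotagmin (eWAT 110.38, iWAT 7.36), 2900057B20Rik (eWAT 109.5, iWAT 4.2), Mctp2 (eWAT 107.73, iWAT 1.58), Hipk2, a nuclear kinase (eWAT 101.55, iWAT 6.31), and 4930453L07Rik (eWAT 101.55, iWAT 1.58) completed them. Their distances were 84.5, 10.5, 90.8, 15.4 and 288 kb. BAT values in these 10 were between 0 and 5.53, and all 12 lay more than 4 kb from a start site.

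**Figure D2:**
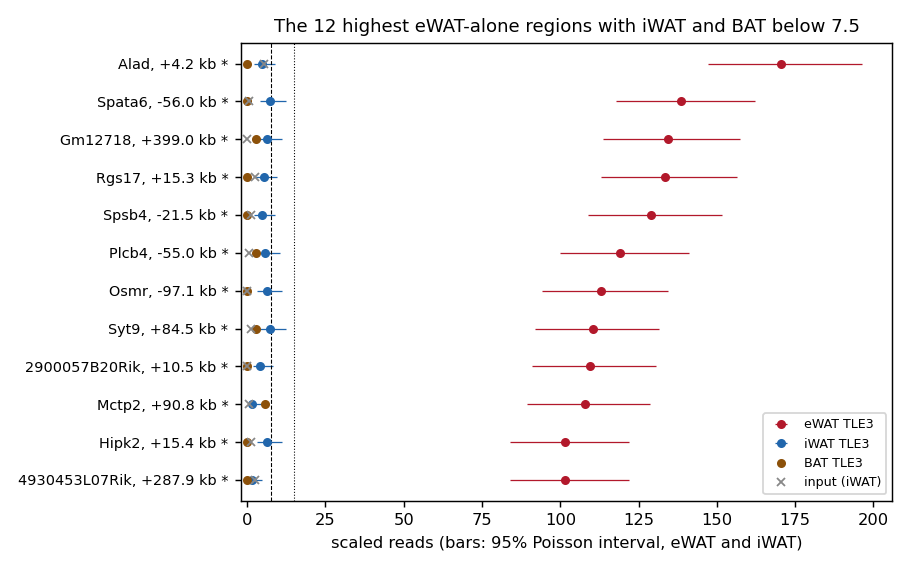
TLE3 and input values (scaled reads, horizontal) of the 12 strict members with the highest eWAT values, labelled by nearest gene and distance to its start site. Points are single libraries and bars are Poisson intervals; eWAT values run from 101.55 to 170.43 and iWAT values are at most 7.36, which the rule requires, and the dashed and dotted lines mark 7.5 and 15.

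Of 20 genes of macrophages, the phagocytes of the innate immune system that also live in fat, 15 carried a member and 10 a strict member. A gene was given the regions for which the deposited table names it as nearest, up to 50 kb from its start site. By this rule 5795 of 21900 protein-coding genes had a member, or 26.5%, and 2311, or 10.6%, had a strict member. The macrophage list stood at 75% (interval 53.1 to 88.8) and 50.0% (29.9 to 70.1). It was chosen with earlier results of these data known, so the intervals cover counting error only and are no test. For iWAT-alone regions the same list gave 5 of 20 genes, where 19.1% of all genes had one, and for iWAT-alone regions with eWAT and BAT below 7.5 it gave 1 of 20, where 7.47% of all genes had one. These genes held 23 members, 13 of them strict, and 7 iWAT-alone regions. The count of 10 genes fell to 4 with the limit on iWAT and BAT at 5 scaled reads. That limit left 2666 strict members, and the share of all genes was not computed for it. The count also fell to 4 with at least 30 scaled reads asked of eWAT, where 2.04% of all genes had such a member.

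The complement genes C1qa and C1qb each held a strict member at the start site. C1qa, at chr4:136454697-136454927 and 53 bp upstream, had 41.5 scaled reads in eWAT (Poisson interval 30.5 to 55.2), 6.83 in iWAT (3.64 to 11.7), 0 in BAT and 1.95 in the input. C1qb, at chr4:136442048-136442278 and 71 bp upstream, had 18.54 in eWAT (11.5 to 28.4), 0.53 in iWAT (0.01 to 2.93), 0 in BAT and 1.3 in the input. The rule fixed the order of the depots in both.

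Lyz2, which encodes lysozyme, had 2 strict members, 55 bp upstream with 15.9 (eWAT), 2.1 (iWAT) and 0 (BAT) scaled reads, and 2940 bp upstream with 22.96 (eWAT), 5.26 (iWAT) and 0 (BAT). Ptprc, the pan-leukocyte phosphatase CD45, had one 8 bp upstream with 19.43 (eWAT), 6.31 (iWAT) and 0 (BAT). Csf1r, the receptor for macrophage colony-stimulating factor, had one 157 bp downstream of its start site with 36.21 (eWAT), 3.68 (iWAT) and 2.77 (BAT). A second listed region of Csf1r, 1453 bp downstream, was shared, with 24.73 (eWAT), 28.9 (iWAT) and 11.06 (BAT).

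Members of the other surface molecules lay both at start sites and at some distance. Adgre1, which encodes F4/80, had a strict member 11.6 kb upstream with 42.39 (eWAT), 7.36 (iWAT) and 0 (BAT) scaled reads. Itgam, which encodes CD11b, had one 11.7 kb upstream with 18.54 (eWAT), 1.58 (iWAT) and 0 (BAT), and a member 872 bp downstream with 52.1 (eWAT), 8.41 (iWAT) and 5.53 (BAT). Ccr2, a chemokine receptor of monocytes, had 2 strict members with 22.96 and 17.66 in eWAT and 5.78 in iWAT in both. Mrc1, the mannose receptor, had 2, one 22.4 kb upstream with 22.08 (eWAT), 6.31 (iWAT) and 0 (BAT), and one 755 bp upstream with 16.78 (eWAT), 4.73 (iWAT) and 5.53 (BAT). Cd14, the lipopolysaccharide coreceptor, had 1 strict member among 3, with 36.21 (eWAT), 7.36 (iWAT) and 0 (BAT), and a member 92 bp downstream of its start site with 33.56 (eWAT), 8.41 (iWAT) and 5.53 (BAT). Tyrobp, an adaptor of myeloid receptors, had a member 959 bp upstream with 29.14 (eWAT), 10.51 (iWAT) and 0 (BAT). All 23 members of the list were higher in eWAT, since the rule fixed that direction.

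Other regions of these genes were shared or lay the other way. Cx3cr1 had 3 listed regions and no member, and 1 of them, 3861 bp downstream of its start site, had 2.65 (eWAT), 34.16 (iWAT) and 2.77 (BAT) scaled reads. Marco had a member at 15.01 in eWAT and 5 other listed regions, and its summed values were 93.6 (eWAT), 98.8 (iWAT) and 38.72 (BAT). Clec7a summed to 50.34 (eWAT), 52.55 (iWAT) and 11.06 (BAT). Cd68, Spi1, which encodes PU.1 itself, and Aif1 had no listed region. Over all listed regions of the list, 15 of 17 genes with any region had a higher sum in eWAT than in iWAT, where 61.4% of all genes did, and the median log2 ratio of sums was 1.39, against 0.21 over all genes. These sums include the 23 members, which the rule made higher in eWAT, and only 7 iWAT-alone regions. They are therefore not separate from the counts of members. The list's summed values were 1541 (eWAT), 870 (iWAT) and 315 (BAT) scaled reads. More cells of a type and more TLE3 per cell cannot be told apart in such pooled cultures, and the part of macrophages among the cultured stromal cells in this result was not tested.

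**Figure D3:**
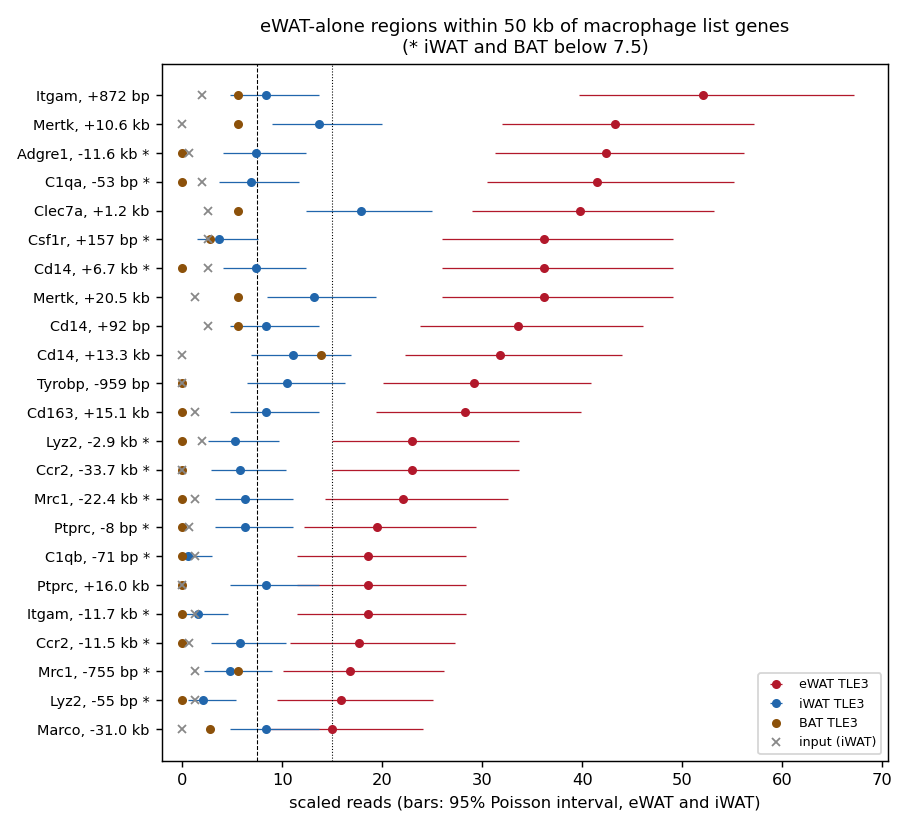
The 23 eWAT-alone members within 50 kb of macrophage list genes, labelled by gene and distance to the start site, with their values in scaled reads. Points are single libraries, bars are Poisson intervals for eWAT and iWAT, stars mark the 13 strict members, and the dashed and dotted lines mark 7.5 and 15; eWAT lies right of iWAT and BAT in every row, as the rule requires.

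Some of the other strict members in the 48 start-site windows, picked after their values were seen and with no list or test behind the choice, lay at genes known from myeloid cells. The window also held genes of other kinds, such as Asic3, an ion channel (eWAT 37.97, iWAT 1.58), Tcf23, a transcription factor (eWAT 37.97, iWAT 3.15), and Ugt2b36, a glucuronosyltransferase (eWAT 20.31, iWAT 3.68). Further ones were Gdpd2 (eWAT 30.91, iWAT 5.26), Anks1b (eWAT 26.49, iWAT 1.05) and Slc45a3 (eWAT 15.01, iWAT 1.58). How many of the 48 are genes of myeloid cells was not counted, and neither was their share among all promoters. Of the picked genes, the inflammasome gene Nlrp3 was at 37.09 (eWAT), 6.83 (iWAT) and 0 (BAT) scaled reads, and Nlrc4 was at 26.49 (eWAT), 4.73 (iWAT) and 0 (BAT). Slc15a3, a lysosomal peptide transporter, had 49.45 in eWAT and 7.36 in iWAT, and Slc11a1, the phagosomal metal transporter, had 30.02 (eWAT) and 7.36 (iWAT). Hk3, the hexokinase of myeloid cells, had 24.73 in eWAT and 2.1 in iWAT. Receptors of myeloid cells such as Cd33 (eWAT 25.61, iWAT 5.78), Cd300ld3 (eWAT 27.37, iWAT 5.26), Trem3 (eWAT 22.08, iWAT 4.73), Timd4 (eWAT 23.84, iWAT 3.68) and P2ry12 (eWAT 15.01, iWAT 3.15) stood in the same window. Ciita, the transactivator of MHC class II genes, had 23.84 (eWAT) and 5.78 (iWAT), Inpp5d, the phosphatase SHIP1, had 18.54 (eWAT) and 2.63 (iWAT), and the chemokine genes Ccl6 and Ccl12 had 17.66 and 16.78 in eWAT beside 6.31 and 5.78 in iWAT. BAT was at 0 in all of the picked genes except Inpp5d (5.53) and Ccl12 (2.77).

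The 8 strongest strict members within 1 kb of a start site, chosen by value alone, were of mixed kind. C77080 led with 70.64 (eWAT), 4.2 (iWAT) and 2.77 (BAT) scaled reads, followed by Slc15a3. Trf, which encodes transferrin, had 45.92 (eWAT), 3.68 (iWAT) and 0 (BAT). AI467606 and Srf, the serum response factor, both had 45.04 in eWAT, with 6.83 and 7.36 in iWAT. Usf1, an E-box factor, had 44.15 (eWAT), 5.26 (iWAT) and 5.53 (BAT). Rspo1, a secreted activator of Wnt signalling, had 43.27 (eWAT), 1.58 (iWAT), 0 (BAT) and 0 (input), 835 bp upstream of its start site. Within 50 kb Rspo1 also had 1 iWAT-alone region, and its listed regions summed to 45.92 (eWAT) and 46.25 (iWAT). C1qa was the eighth.

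The visceral and mesothelial list, which holds genes of the lining of visceral fat and of its mesenchyme, had a member at 11 of 21 genes and a strict member at 5, against 7 and 4 for iWAT-alone regions. The member share was 52.4% (interval 32.4 to 71.7) and the strict share 23.8% (10.6 to 45.1). Of all protein-coding genes, 26.5% had a member and 10.6% a strict member, and 19.1% and 7.47% had the iWAT-alone counterparts. Tcf21, a factor of visceral mesenchyme, had 2 strict members and no other listed region. One, at chr10:22539952-22540182 and 133 bp upstream, had 18.54 (eWAT), 2.1 (iWAT) and 0 (BAT) scaled reads, and the other, 1319 bp upstream, had 25.61 (eWAT), 4.73 (iWAT) and 0 (BAT). Msln, the mesothelial surface protein mesothelin, had a strict member with 38.85 (eWAT), 5.78 (iWAT) and 2.77 (BAT), and a second member with 26.49 (eWAT), 12.61 (iWAT) and 2.77 (BAT). Wt1, the Wilms tumour factor of mesothelium, had 1 strict member among 3, in an intron, with 19.43 (eWAT), 2.63 (iWAT) and 2.77 (BAT), but its 7 listed regions, 2 of them in iWAT alone, summed to 189.86 (eWAT) and 325.82 (iWAT). Gpm6a (eWAT 26.49, iWAT 5.26) and Krt8 (eWAT 23.84, iWAT 4.2) had the other 2 of the 6 strict members, and Krt8 also had 2 iWAT-alone regions and summed to 33.56 (eWAT) and 47.82 (iWAT). The list's summed values over all listed regions were 1838 (eWAT), 1894 (iWAT) and 572 (BAT), while 9 of 17 genes with any region had a higher sum in eWAT than in iWAT and the median log2 ratio of sums was 0.41, against 0.21 over all genes. These sums include the 19 members, which the rule made higher in eWAT.

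Adipocyte genes had many members and few strict ones. Of 30 lipid storage genes, 16 had a member (53.3%, interval 36.1 to 69.8) and 4 a strict member, beside 25 with a region shared by eWAT and iWAT. Of all genes, 26.5% had a member. An iWAT-alone region was found at 10 of the 30, or 33.3%, where 19.1% of all genes had one. Pparg, the master regulator of adipocytes, had 4 members, 2 of them strict, and the stronger strict one, 12.2 kb downstream of a start site, had 27.37 (eWAT), 4.73 (iWAT) and 2.77 (BAT) scaled reads. Dgat2, which makes triglycerides, had 3 members, 1 of them strict with 38.85 (eWAT), 5.78 (iWAT) and 0 (BAT). Of 37 adipocyte transcription factor genes, 21 had a member and 4 a strict member, and 10 had an iWAT-alone region. Cebpg led with 6 members, of which the strict one had 24.73 (eWAT), 3.15 (iWAT) and 0 (BAT), and Rxra, the partner of PPARγ, had a strict one with 16.78 (eWAT), 0.53 (iWAT) and 0 (BAT). Both shares of strict members, 13.3% and 10.8%, lay near the 10.6% of all genes. The lipid storage list summed to 8922 (eWAT), 7481 (iWAT) and 3797 (BAT) over all its listed regions, so TLE3 at adipocyte genes was present in every depot.

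Of all protein-coding genes, 26.5% had a member and 10.6% a strict member. The lists of secreted, signalling and metabolic genes stood on both sides of these shares. The adipokine and inflammation list had members at 12 of 20 genes and a strict member at 1, Vegfa, the angiogenic factor, which had 6 members with 135.99 (eWAT), 55.18 (iWAT) and 13.83 (BAT) scaled reads at the highest, and 22.96 (eWAT), 5.78 (iWAT) and 2.77 (BAT) at the strict one. Insulin and IGF signalling had 14 and 7 of 24 genes, against 11 and 6 for iWAT-alone regions. There Igf1 had 5 members, with 31.79 (eWAT), 6.31 (iWAT) and 2.77 (BAT) at its strict member, and Irs2, an insulin receptor substrate, had 2 strict members with 29.14 and 16.78 in eWAT and 5.78 and 3.15 in iWAT. The thermogenic list had 12 and 2 of 25, fatty acid oxidation 5 and 0 of 20, and oxidative phosphorylation 6 and 2 of 27. In that order the member shares were 48.0%, 25.0% and 22.2%, and the strict shares 8.00%, 0% and 7.41%. Ppargc1a, the coactivator of mitochondrial genes, had 2 members, with 35.32 and 18.54 in eWAT beside 16.29 and 8.93 in iWAT. Slc27a2, a fatty acid transporter, had a strict member with 31.79 (eWAT), 5.26 (iWAT) and 2.77 (BAT), and Esrrg, an oestrogen-related receptor, one with 19.43 (eWAT), 3.15 (iWAT) and 2.77 (BAT). Acaa2, an oxidation thiolase, had a member at its promoter with 87.42 (eWAT), 66.74 (iWAT) and 22.12 (BAT), off the other lists through an input value of 7.81. Sdhb, Sdhc and Uqcrfs1, subunits of the respiratory chain, had members of at most 45.92 in eWAT, and the strict ones of Sdhc and Uqcrfs1 had 16.78 and 22.96. Over its listed regions within 50 kb, Uqcrfs1 summed to 200.46 (eWAT) and 297.96 (iWAT), while Sdhb and Sdhc summed higher in eWAT.

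TLE partners and their pathways also held members, where 26.5% of all protein-coding genes had a member and 10.6% a strict member. Corepressor genes had a member at 11 of 23 (47.8%, interval 29.2 to 67.0) and a strict member at 5 (21.7%, 9.66 to 41.9). For iWAT-alone regions these counts were 5 and 2. Tle4, a paralogue of TLE3, had a strict member with 23.84 (eWAT), 5.78 (iWAT) and 0 (BAT) scaled reads, and Tbl1xr1, a corepressor exchange factor, one with 26.49 (eWAT), 7.36 (iWAT) and 0 (BAT). The Wnt list had members at 12 and strict members at 6 of 30 genes, against 15 and 9 for iWAT-alone regions. Tcf7l2, the Wnt effector, had 4 members with 143.94 (eWAT), 42.57 (iWAT) and 19.36 (BAT) at the highest, and 2 strict ones with 40.62 and 19.43 in eWAT and 4.73 and 3.68 in iWAT. The Notch list had 7 and 3 of 20, and Rbpj, the Notch effector, had 2 strict members with 38.85 and 20.31 in eWAT and 7.36 and 1.05 in iWAT. Notch2 had 4 members, and its strict one had 30.91 (eWAT), 7.36 (iWAT) and 2.77 (BAT). Over all listed regions within 50 kb, Tle4 summed to 193.39 (eWAT) and 322.67 (iWAT), and Rbpj to 268.45 (eWAT) and 281.16 (iWAT). The sums of Tbl1xr1, Tcf7l2 and Notch2 were higher in eWAT.

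Members near Tle3 itself numbered 6, and 2 were strict. The nearest, 3633 bp upstream of the start site, had 115.68 (eWAT), 72.0 (iWAT), 74.66 (BAT) and 9.11 (input) scaled reads. Another 2 upstream, at 26205 and 11002 bp, had 45.92 and 83.89 in eWAT, 21.55 and 26.8 in iWAT, and 2.77 and 0 in BAT. The strict members lay 139 and 141 kb downstream, with 48.57 and 34.44 in eWAT, 3.68 and 7.36 in iWAT and no read in BAT, and a further member 186 kb downstream had 77.71 (eWAT), 25.75 (iWAT) and 16.59 (BAT). Among the 3 upstream members BAT was thus high at the nearest and at 1 read or none at the other two.

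The other lists of cell types and of body position had strict members at smaller shares of their genes. Of all protein-coding genes, 26.5% had a member and 10.6% a strict member, and 19.1% had an iWAT-alone region. Progenitor and fibroblast genes had members at 15 and strict members at 5 of 24, against 13 and 9 for iWAT-alone regions. There Zfp423, a preadipocyte factor, had 4 members, and Sox9 and Ly6a, which encodes Sca-1, had strict ones with 36.21 and 34.44 scaled reads in eWAT and 1.05 and 5.78 in iWAT. Depot developmental genes had 7 and 2 of 28 (25.0% and 7.14%), against 12 and 6 for iWAT-alone regions. Nr2f2, a nuclear receptor, had a strict member with 30.02 (eWAT), 4.73 (iWAT) and 5.53 (BAT), and Hoxc4 had 3 members and none strict. Within 50 kb Nr2f2 also had 2 iWAT-alone regions, and its listed regions summed to 37.08 (eWAT) and 54.13 (iWAT). The sums of Zfp423, Sox9, Ly6a and Hoxc4 were higher in eWAT. Endothelial genes had 4 and 0 of 16, with 2 members at Vwf, skeletal muscle genes 5 and 0 of 14, with 2 at Des, and neuronal and glial genes 3 and 2 of 14, with strict members at Snap25 (20.31 and 17.66 in eWAT) and Map2 (22.96). Of the 17 lists, which were chosen with earlier results of these data known, the macrophage list had the highest share of genes with a strict member, 50.0%. Insulin and IGF signalling came next with 29.2% (14.9 to 49.2). The intervals of these 2 overlap, and with 14 to 37 genes a list, smaller differences between lists cannot be told from counting error. For iWAT-alone regions with eWAT and BAT below 7.5, insulin and IGF signalling stood at 25.0% and the macrophage list at 5.00%. Of all genes, 7.47% had such a region.

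**Figure D4:**
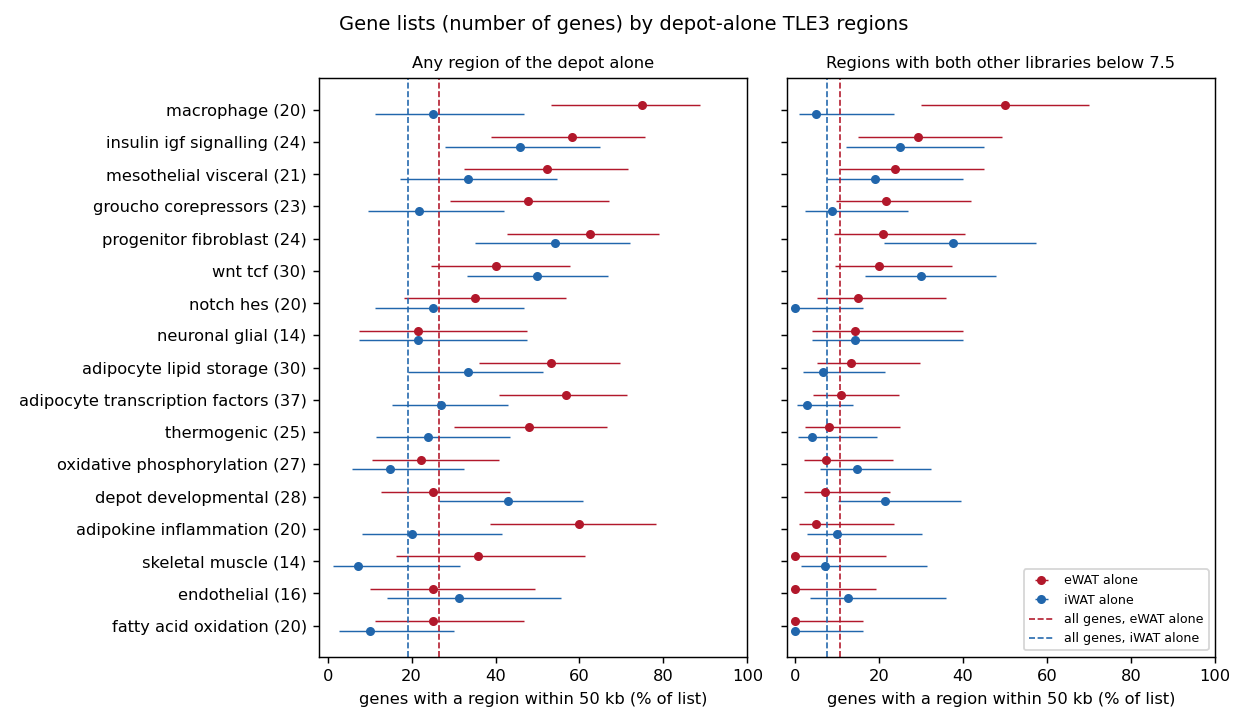
Share of each gene list (percent of genes, horizontal; number of genes in brackets) with an eWAT-alone (red) or iWAT-alone (blue) region within 50 kb, for all such regions (left) and for those with both other TLE3 libraries below 7.5 (right). Bars are 95% Wilson intervals and dashed lines the share of all 21900 protein-coding genes; the macrophage list stands at 75% and 50.0% for eWAT alone and at 25.0% and 5.00% for iWAT alone.

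Members spread over 8245 nearest genes, of which 4614 had 1 member and 549 had 5 or more. Maf, which encodes a transcription factor of macrophages and other cells, had the most, with 21 members, 12 of them strict, between 56.6 and 560 kb from its start site, and 17 iWAT-alone and 7 shared by all 3 depots around the same gene. Bmper, a regulator of bone morphogenetic proteins, followed with 16. Tns3, a tensin, Tbl1xr1, Agbl1 and Trps1, a GATA-type repressor, had 15 each, and Auts2, Slc24a3 and the ephrin ligand genes Efnb2 and Efna5 had 14 each. These loci also held many other regions, and members made up 21.6% to 45.5% of all listed regions nearest to them. Tmem114 differed, with 13 members, 10 of them strict, among 16 listed regions, or 81.3%, and a single iWAT-alone region. Tns3, Nr2f2 and Trps1 had 8 strict members each. Within fixed windows of 50 kb no more than 6 members were found. In all, 7 windows reached that number, and the 3 with the highest summed eWAT values lay near Vps37b on chromosome 5 (none strict), 4921531P14Rik on chromosome 18 (3 strict) and St3gal6 on chromosome 16 (none strict).

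Members lay nearer to start sites than regions listed in iWAT alone. The median distance was 31.0 kb for members and 34.98 kb for the strict set, against 53.6 kb for iWAT-alone regions, 36.8 kb for regions of eWAT and iWAT and 38.0 kb for regions of all 3 depots. For iWAT-alone regions with eWAT and BAT below 7.5 it was 69.0 kb. Within 10 kb of a start site stood 24.2% of members (interval 23.6 to 24.9), 22.0% of strict members (20.9 to 23.1), 15.0% of iWAT-alone regions (14.5 to 15.6), 21.1% of regions of eWAT and iWAT (20.5 to 21.6) and 20.2% of regions of all 3 depots (19.5 to 21.0). The difference of members from iWAT-alone regions was 9.21 percentage points (8.34 to 10.1), from regions of eWAT and iWAT 3.19 points (2.34 to 4.04) and from regions of all 3 depots 4.01 points (3.003 to 5.00). The strict set differed from its iWAT counterpart by 10.3 points (8.91 to 11.7). Position was not used to choose members, but each set comes from single libraries, so the intervals do not speak for the depots.

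The excess over iWAT-alone regions held on all 20 chromosomes compared and in each range of TLE3 value and of input. In members the 10 kb share was 21.8% at 15 to 20 scaled reads in eWAT, 23.5% at 20 to 30, 26.4% at 30 to 50 and 28.2% at 50 or more. In iWAT-alone regions it was 15.1%, 14.8%, 14.8% and 15.7% over the same ranges of the iWAT value. By input the members stood at 20.3% below 1, 26.5% from 1 to 3 and 30.9% at 3 or more, against 12.8%, 16.4% and 20.5% in iWAT-alone regions. The share thus grew with the input value in both sets.

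Within 1 kb of a start site stood 3.47% of members (3.19 to 3.76) and 2.04% of strict members (1.69 to 2.45), against 1.75% of iWAT-alone regions (1.55 to 1.97), 3.12% of regions of eWAT and iWAT (2.90 to 3.35) and 2.71% of regions of all 3 depots (2.42 to 3.03). For iWAT-alone regions with eWAT and BAT below 7.5 it was 0.937% (0.719 to 1.22), and the strict set differed from these by 1.10 points (0.650 to 1.57). The difference of members from regions of eWAT and iWAT, 0.35 points (-0.01 to 0.71), includes 0. The members with another library at 15 or more had 6.55% within 1 kb, against 2.67% of those with both others below 15, a difference of 3.88 points (3.03 to 4.81). The group with the higher input value thus had the higher share at start sites. By the deposited annotation 48.2% of members lay in introns, 46.0% between genes and 2.49% at promoters.

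**Figure D5:**
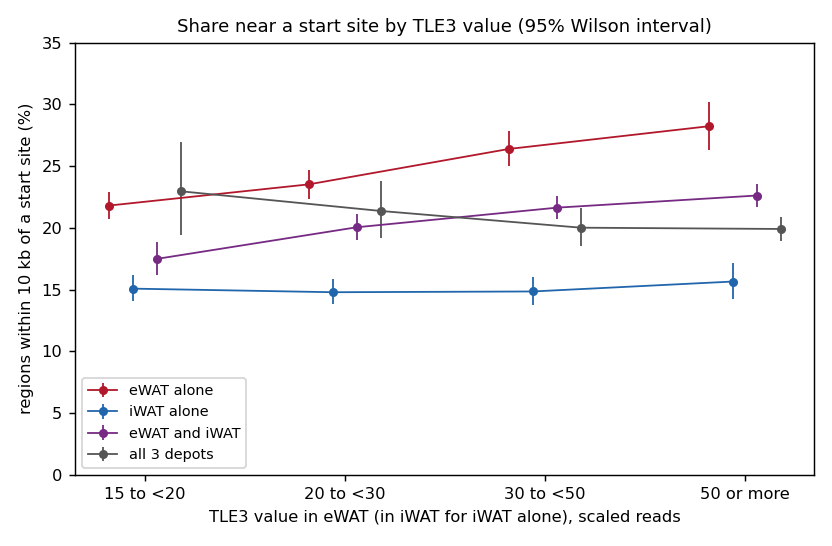
Share of regions within 10 kb of a start site (percent, vertical) by TLE3 value in eWAT, or in iWAT for iWAT-alone regions (scaled reads, horizontal), for 4 sets of regions. Points are shares with 95% Wilson intervals; eWAT-alone members go from 21.8% to 28.2% and iWAT-alone regions stay between 14.8% and 15.7%.

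Members were less often close to other TLE3 regions than shared ones. Another listed region lay within 10 kb of 59.5% of members (58.7 to 60.2) and of 53.4% of strict members (52.1 to 54.8), against 60.3% of iWAT-alone regions (59.6 to 61.1), 67.9% of regions of eWAT and iWAT (67.3 to 68.5) and 71.1% of regions of all 3 depots (70.3 to 72.0). A region of all 3 depots stood that close to 13.8% of members and 9.47% of strict members, against 13.4% of iWAT-alone regions. Another member lay within 10 kb of 24.7% of members, and another iWAT-alone region within 10 kb of 26.3% of those. In each of these shares members and iWAT-alone regions, which are of like number, differed by less than 2 points, while strict members stood below members in general. The iWAT-alone regions with eWAT and BAT below 7.5 likewise stood below iWAT-alone regions in general. Their shares were 55.3% for any listed region and 10.3% for a region of all 3 depots.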

How the data were processed

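TLE3 ChIP-seq libraries of 3 depots and 1 iWAT input were read from 3 deposited region tables that share columns. Per the submitters' processing notes, tools were STAR and HOMER and the genome mm9, without versions; how peaks were called is not stated in any source at hand. The deposited values are a signal, reads per region scaled to one total per library by the authors, per the file headers. Regions were joined by identifier. Distances, annotations and nearest genes are the deposited ones. Positions and gene counts were computed with Python 3.11.15 (pandas, scipy), with Wilson, Newcombe and Poisson intervals. Parts of the code were tested on simulated data, which did not cover the gene counts or the intervals. With 1 library per depot no test between depots was made. All 393 genes of 17 lists matched a gene ID. Members, lists and limits were chosen with earlier results of these data known. Genes and regions were named by rules on rank (the 6 highest members, the 12 highest strict ones, the 8 highest within 1 kb, 3 per list), and others are marked where named. Some genes these rules name are not reported here. Alternatives concern limits, scale and distances.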

Additional observations from a re-analysis of the deposited data

How the results depend on the processing

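Of 31 alternatives over 8 results, 18 listed at the start and 13 chosen after seeing the data, 15 gave a count within 1.5 times the one reported, and 16 a count outside it or a share outside its Wilson interval. No overlap with another list left 16095 regions, and a 1 kb gap 15241. Requiring 30 scaled reads in eWAT left 5853 members. A strict limit of 5 gave 2666 and of 10 gave 7974 regions, and rescaling iWAT and BAT gave 3813. A 3-fold limit gave 5553 regions. The share of members within 1 kb of a start site became 14.0% with the distance at 5 kb, 4.89% with at least 30 scaled reads and 2.85% with an input below 3. The share within 10 kb became 27.0% with at least 30 scaled reads, 23.1% with that input and 22.5% with iWAT and BAT below 15. Genes with a member numbered 2957 at 10 kb and 2311 for strict members. A neighbour lay within 5 kb of 38.9% and within 50 kb of 93.3%. Of the 20 macrophage genes, 10 with a strict member became 7 at 10 kb, 12 at a limit of 10, 10 without the BAT library, 7 after rescaling, 4 at a limit of 5, and 4 with at least 30 scaled reads. No paired analysis was possible because each depot has 1 library. BAT depth limits what a value of 0 shows.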
